A study of Mus musculus with 12 samples.

Results

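The natriuretic peptide genes Nppa and Nppb, the receptor genes Npr1, Npr2 and Npr3, and Corin, the gene of the protease that activates the peptides, were followed in hearts of mice with a Lemd2 mutation. These 6 genes were picked by name from a table of 39331 gene entries, and all 6 were abundant enough to be tested. RNA was sequenced from 6 hearts of Lemd2 p.L13R knock-in (KI) mice and 6 hearts of wild-type (WT) mice. All 12 libraries come from untreated C57BL/6N mice aged 9 months. The KI allele replaces leucine by arginine near the start of LEMD2, which sits in the inner nuclear membrane, and the labels do not say whether 1 or both copies carry it. The first number in the titles of KI 1 and KI 2 joins a pair of numbers, and whether these libraries pool material is not given in the sources used here. Nothing in the labels beyond separate numbers says that the libraries come from separate animals, so p-values measure the spread between these libraries.

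Atrial natriuretic peptide, from Nppa, and B-type natriuretic peptide, from Nppb, are made by cardiac muscle cells and released when the heart wall is stretched. Corin, on the cell surface, cuts the precursor of atrial natriuretic peptide. Both hormones bind the receptor encoded by Npr1, which makes cyclic GMP, while Npr2 encodes the related receptor for C-type natriuretic peptide and Npr3 the receptor that takes peptides up for clearance. In the healthy adult heart Nppa is made mainly in the atria, and its return in the ventricle is a widely used sign of cardiac stress.

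The tissue label is heart, and the libraries looked ventricular by their markers. Myl7, Sln and Mybphl, which atrial muscle expresses strongly, were at or below 0.426 CPM (counts per 1000000, scaled between libraries) in the 11 libraries other than KI 6. The ventricular light chain gene Myl2 lay between 5040 and 5830 CPM in KI 1 to 5, at 5150 CPM in KI 6 and between 4520 and 6270 CPM in WT. KI 6 stood apart, with 145 CPM of Myl7, 52.4 CPM of Sln, 29.8 CPM of Mybphl and 223 CPM of Myl4. Total counts ran from 27867517 to 42885258 in KI and from 38266466 to 44559350 in WT. Genes of the mitochondrial chromosome took 32.1% ± 1.17 of the counts in KI and 37.0% ± 2.29 in WT (SD, n = 6 each). The sample tags in the titles of KI 3, 4 and 5 include the age, that of KI 2 ends in the word old and that of KI 6 in the word new. What these tags mean is not given in the sources used here, and values for KI 3, 4 and 5 alone are given where they bear on a result. Lemd2 itself was at 21.3 ± 2.88 CPM in KI and 27.4 ± 1.97 CPM in WT (log2 fold change -0.36, SE 0.09, adjusted p = 0.0213 by edgeR), a level that does not check a change of 1 amino acid.

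Of the 6 genes, 1 was higher in KI (Nppa) and 1 was lower (Corin) at an adjusted p under 0.05 by the edgeR quasi-likelihood test over 15602 genes. Over all genes tested, 4.41% were higher and 4.34% were lower, 8.75% in all. DESeq2 called 13.1% of all genes tested, limma voom 14.6% and edgeR with libraries scaled by their totals alone 20.2%. An unadjusted p under 0.05 was reached by 25.8% of all genes tested with edgeR, 26% with DESeq2 and 31.4% with voom. The KI and WT values overlapped for all 6 genes, while 4.36% of all genes tested had groups that did not overlap, 2.15% with KI higher and 2.21% with KI lower. Directions are relative to the scaling between libraries: of the genes called, 50.4% were higher in KI, against 93.9% when libraries were scaled by their totals alone, which moved the median log2 fold change of all genes by 0.148. The signs of Nppa, Nppb, Npr1, Npr3 and Corin were the same with RLE factors or library totals, and that of Npr2 was the same with RLE factors and turned with library totals.

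**Figure D1:**
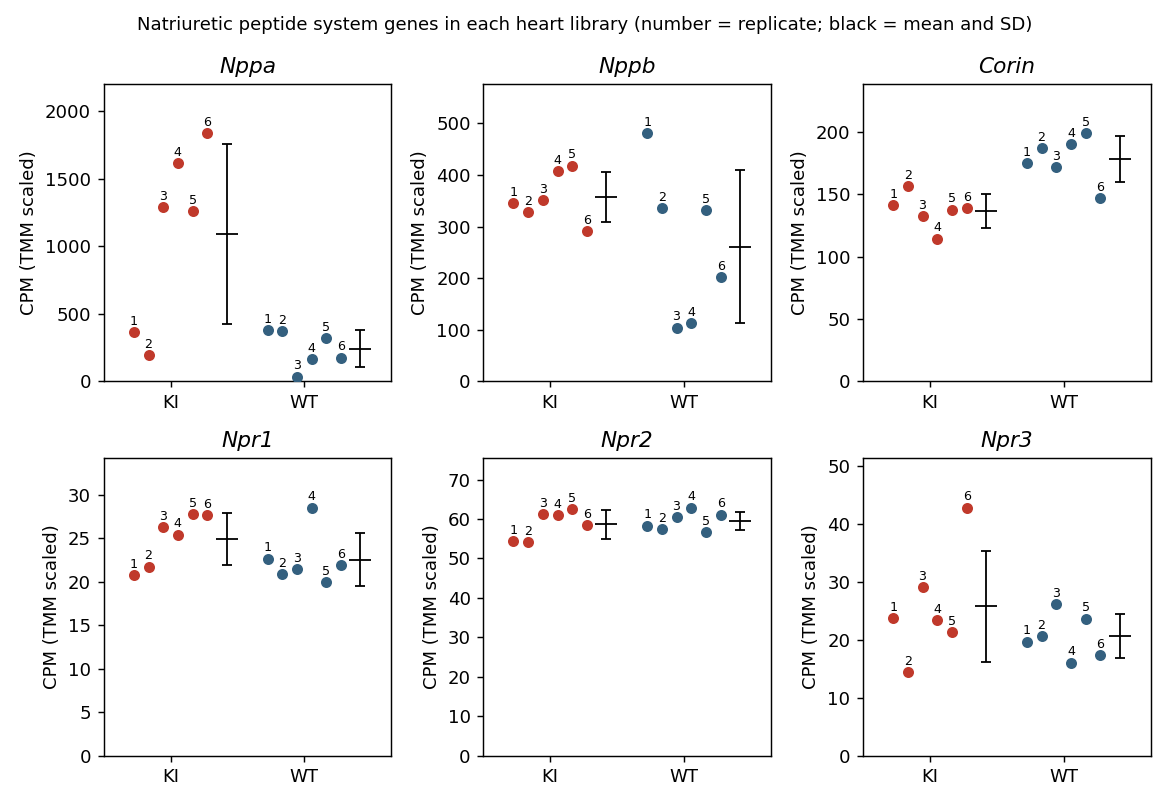
Expression of the 6 genes in each library, in CPM scaled by TMM, with KI at left and WT at right in each panel. Numbers are replicates, and the black mark and bar give the mean and SD of 6 libraries. Nppa lay at 1257 CPM or above in KI 3, 4, 5 and 6 and at 361 CPM or below in KI 1 and KI 2.

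Nppa (Gene ID 230899, GRCm38.p6 chromosome 4, 148000722 to 148002074, plus strand) was the gene of the set that differed most. It ranged from 195 CPM (KI 2) to 1836 CPM (KI 6) in KI, with a median of 1272 CPM, and from 35.2 CPM (WT 3) to 377 CPM (WT 1) in WT, with a median of 246 CPM. KI 3 (1287 CPM), KI 4 (1612 CPM), KI 5 (1257 CPM) and KI 6 lay above every WT library, and KI 1 (361 CPM) and KI 2 lay inside the WT range. The mean was 1091 ± 668 CPM in KI and 240 ± 137 CPM in WT (SD, n = 6 each). The fold change was 4.54, or 2.18 on the log2 scale (SE 0.58, 95% interval 0.94 to 3.43), with an edgeR adjusted p of 0.0341. Since whole tissue was sequenced, a change in RNA per cell and a change in the number of cells that express a gene cannot be told apart.

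The Nppa call depended on single libraries, and the spread within each group was wide: the highest library was 9.44 times the lowest in KI and 10.7 times the lowest in WT. It passed the threshold after 4 of the 12 possible omissions of a library, with log2 fold changes from 1.96 (without WT 3) to 2.40 (without KI 2) and the highest adjusted p of 0.0735 (without WT 6). The other libraries whose omission ended the call were WT 2 (adjusted p = 0.0520), WT 4 (0.0553), WT 5 (0.0543), KI 3 (0.0669), KI 4 (0.0687), KI 5 (0.0603) and KI 6 (0.0628). Against all WT libraries, KI 3, 4 and 5 alone gave a log2 fold change of 2.51 (SE 0.51, adjusted p = 0.0107) and KI 1, 2 and 6 alone gave 1.73 (SE 0.71, adjusted p = 0.244), both by edgeR. These KI subsets were not compared with each other by a test. KI 3, 4 and 5 also had the 3 lowest total counts of the 12 libraries (27867517, 34876036 and 31759538), and the part of depth in the result was not tested.

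Atrial markers were set beside Nppa, since atrial muscle is rich in its RNA. The summed level of 9 atrial markers ranged from 45.4 to 586.6 CPM in KI and from 47.8 to 61.3 CPM in WT, and without KI 6 the KI range was 45.4 to 62.1 CPM. Outside KI 6 the largest member of the sum was Kcna5, at 21.1 to 34.4 CPM in KI and 17.6 to 30.4 CPM in WT. A flat sum there therefore says little about the less abundant markers. KI 6 had the highest value of the 12 libraries for 7 of the 9 markers, the exceptions being Bmp10 and Kcna5. Of the 5 markers that passed the count filter, Dkk3 was called higher by edgeR. It was at 64.5 CPM in KI 6, at most 12.9 CPM in the other KI libraries and at most 3.64 CPM in WT. DESeq2 also called Dkk3 higher and nothing lower, while voom called none higher and Stard10 lower. Sln was at 0 in 4 libraries, Bmp10 in 5 and Mybphl in 1. In KI 3, 4 and 5, where Nppa lay between 1257 and 1612 CPM, no value of Myl7, Sln or Mybphl exceeded 0.177 CPM. Other members of the list went both ways there: Dkk3 was at 12.9, 9.66 and 5.86 CPM, each above its WT maximum, and Stard10 at 7.64, 7.18 and 7.51 CPM, each below its WT minimum of 13.3 CPM. Stard10 was also below that minimum in KI 1 (8.71 CPM) and KI 2 (9.86 CPM). Dkk3 was above its WT maximum in KI 1 (4.88 CPM) but not in KI 2 (3.17 CPM). These 5 markers were picked out after their values were seen. Without KI 6 the Nppa log2 fold change was 1.97 (SE 0.59, adjusted p = 0.0628 by edgeR), and the KI mean was 942 CPM.

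Fibroblast and macrophage markers were also set beside Nppa. The summed level of 7 fibroblast markers ranged from 1355 to 2942 CPM in KI (median 2017 CPM) and from 1417 to 1731 CPM in WT (median 1579.5 CPM), and 1 of the 7, Col1a1, was called higher by edgeR (3 of 7 by DESeq2). All 7 fibroblast markers were highest in KI 6. The summed level of 7 macrophage markers ranged from 144.8 to 217.6 CPM in KI (median 183.45 CPM) and from 123.2 to 197.9 CPM in WT (median 139.1 CPM), with a list median log2 fold change of 0.31. Of these, 0 passed the threshold by edgeR or voom (4 at an unadjusted p under 0.05 by each), DESeq2 called 1 higher (Csf1r) and scaling by library totals called 5 higher. The part of these markers and that of the lower mitochondrial share in the Nppa result were not tested. When genes of the mitochondrial chromosome were left out, the Nppa log2 fold change was 2.18 and its adjusted p 0.0353 by edgeR.

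**Figure D2:**
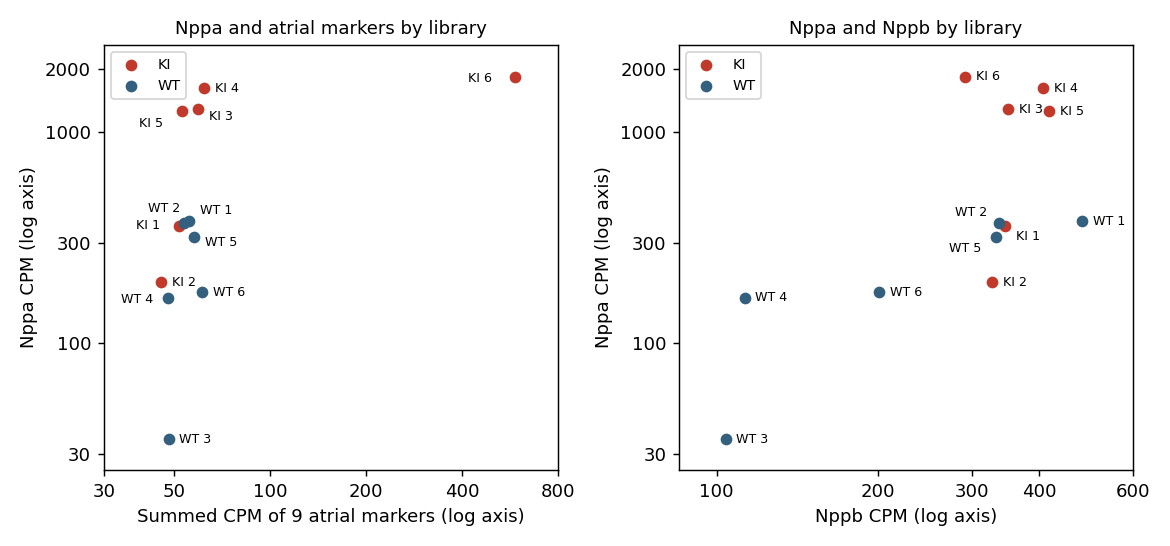
Nppa level in each library (vertical, CPM, log axis) against the summed level of 9 atrial markers (left panel) and against Nppb (right panel), both in CPM on log axes. KI 6 stands alone at 586.6 CPM of atrial markers, while KI 3, 4 and 5 have Nppa at 1257 CPM or above with atrial markers at 62.1 CPM or below. Outside KI 6, Kcna5 is the largest member of that sum.

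Nppb (Gene ID 18158, chromosome 4, 147985786 to 147987205, plus strand) lies 13.5 kb before Nppa on the same strand. It ranged from 292 to 418 CPM in KI, with a median of 348 CPM, and from 104 to 481 CPM in WT, with a median of 267 CPM. Every KI library lay inside the WT range, and all 6 lay above the WT mean. The means were 357 ± 48.3 CPM in KI and 261 ± 148 CPM in WT (SD, n = 6 each). The log2 fold change of 0.45 (SE 0.31, 95% interval -0.22 to 1.12) did not pass the threshold (adjusted p = 0.392 by edgeR).

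The spread of Nppb was wide in WT and narrow in KI. The highest WT library was 4.63 times the lowest, and the highest KI library was 1.43 times the lowest. WT 3 (103.9 CPM) and WT 4 (112.7 CPM) were the lowest libraries. The log2 fold change was 0.28 without WT 3 and 0.72 without WT 1, and no fit of the 12 that left out 1 library brought Nppb past the threshold.

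The balance between the 2 peptide genes differed between libraries. The ratio of Nppa to Nppb counts, not adjusted for length, was 1.05 in KI 1, 0.594 in KI 2, 3.67 in KI 3, 3.95 in KI 4, 3.01 in KI 5 and 6.30 in KI 6, against 0.338 to 1.46 in WT. KI 6 had the highest Nppa and the lowest Nppb of the KI libraries. Within WT, the order of the 6 libraries was the same for both genes (Spearman rho = 1.00, exact permutation p = 0.00278, the smallest that 6 pairs allow, adjusted over 30 relations 0.0833). Pearson r for these log2 CPM values was 0.85 (exact permutation p = 0.00694, adjusted 0.208), and it was 0.91 without the 2 libraries farthest from the median of Nppa. Within KI, r was 0.22 (exact permutation p = 0.714, adjusted 0.857) and rho was -0.03 (exact permutation p = 1.00, adjusted 1.00). The difference between these correlations was not tested.

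Whether the fold changes of the neighbouring genes Nppa and Nppb differ was not tested, nor was any part of promoter motifs in them. Matches to motifs of factors known to act on these genes are in capitals below. The sequence before each start is shown from RefSeq (build GRCm38.p6), plus strand. For Nppa it is chr4:148000472-148000721. For Nppb it is chr4:147985650-147985785, up to the start of the gene in the deposited table, and then a stretch just inside that start, chr4:147985795-147985821.
Nppa: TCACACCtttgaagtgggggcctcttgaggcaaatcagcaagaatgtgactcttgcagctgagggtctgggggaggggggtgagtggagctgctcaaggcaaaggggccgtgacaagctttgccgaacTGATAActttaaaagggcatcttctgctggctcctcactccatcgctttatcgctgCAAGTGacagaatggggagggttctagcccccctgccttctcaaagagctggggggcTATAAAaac
Nppb, before the gene: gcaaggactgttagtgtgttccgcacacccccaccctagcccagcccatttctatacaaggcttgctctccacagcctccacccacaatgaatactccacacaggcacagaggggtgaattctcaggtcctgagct
Nppb, inside the gene: GGAATGcagcTGATAAatcagAGATAA

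Motifs were searched on both strands in the 250 bases before the RefSeq starts, and none of the matches overlapped another. The Nppa window held the GATA motif TGATAA, the T-box motif TCACACC, the NKX2-5 motif CAAGTG and the TATA motif TATAAA, 1 match each. The Nppb window held TGATAA, the other GATA form AGATAA, the MCAT motif GGAATG and TATAAA, 1 match each, and the stretch inside the gene holds the first 3 of these. Of 32851 such windows over all genes, TGATAA occurred in 7.94%, AGATAA in 9.99%, TCACACC in 3.33%, CAAGTG in 11.6%, GGAATG in 12.6% and TATAAA in 12.4%. Neither window held the exact CArG box CCWWWWWWGG (W is A or T), the binding motif of serum response factor, which occurred in 1.47% of windows. Forms that differ from it by 1 base were not searched, so a CArG-like element in either window was not looked for.

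The other genes around Nppa did not pass the threshold. Of the 10 annotated genes nearest to Nppa, 5 on each side with Nppb left aside, 9 were tested. By edgeR, DESeq2 or voom, 0 passed the threshold (2, 2 and 3 at an unadjusted p under 0.05). Scaling by library totals called 1 higher, which was Clcn6. The median log2 fold change of the 9 genes was 0.01, which is also the median over all genes tested (0.01). Clcn6, a chloride transporter gene 2.18 kb beyond Nppa on the other strand, was at 11.9 ± 1.14 CPM in KI and 10.4 ± 1.48 CPM in WT (SD; log2 fold change 0.19, SE 0.10, adjusted p = 0.221 by edgeR). Mfn2, which encodes a mitochondrial fusion protein, was at 699 ± 44.5 CPM in KI and 721 ± 34.4 CPM in WT (log2 fold change -0.05, SE 0.05). Plod1, which encodes a collagen lysyl hydroxylase, was at 74.4 ± 4.09 CPM in KI and 74.4 ± 10.8 CPM in WT (log2 fold change 0.0017, SE 0.08).

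Corin (Gene ID 53419, chromosome 5, 72299948 to 72504540, minus strand), the protease gene, moved opposite to Nppa. It ranged from 114 CPM (KI 4) to 156 CPM (KI 2) in KI, with a median of 138 CPM, and from 147 CPM (WT 6) to 199 CPM (WT 5) in WT, with a median of 181 CPM. Each of the 6 KI values was below the WT mean, and the groups overlapped only in that KI 2 lay above WT 6. The means were 137 ± 13.7 CPM in KI and 178 ± 18.2 CPM in WT (SD, n = 6 each). The log2 fold change was -0.38 (SE 0.08, 95% interval -0.56 to -0.21, a fold of 0.767), with an edgeR adjusted p of 0.0138.

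Corin stayed past the threshold whichever of the 12 libraries was omitted, with log2 fold changes from -0.44 (without WT 6) to -0.34 and adjusted p from 0.00987 to 0.0343. It lost the call, with the same sign, when libraries were scaled by their totals (-0.24, SE 0.09, adjusted p = 0.0662) and when KI 1, 2 and 6 alone stood against WT (-0.30, SE 0.09, adjusted p = 0.134). KI 3, 4 and 5 alone gave -0.50 (SE 0.10, adjusted p = 0.00908), all by edgeR. Summed markers of ventricular muscle, whose cells express Corin, ranged from 17530 to 20100 CPM in KI and from 16930 to 20830 CPM in WT. By edgeR, 1 of 7 members was called higher (Lrrc10) and 1 lower (Hey2). Mb, Myl2 and Myl3 averaged 9108, 5463 and 3865 CPM in KI and 9418, 5564 and 3884 CPM in WT. The sum therefore says little about the less abundant members. Within KI, Nppa and Corin had r = -0.72 (exact permutation p = 0.0847, adjusted 0.282) and rho = -0.66 (exact permutation p = 0.175, adjusted 0.525), and r was -0.17 without the 2 libraries farthest from the median of Nppa.

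**Figure D3:**
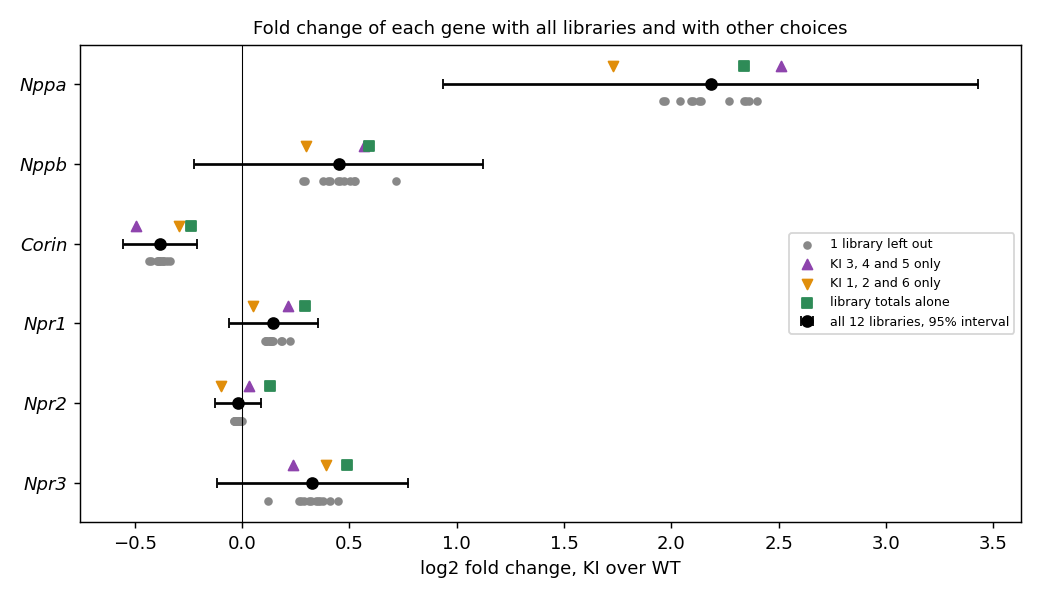
Log2 fold change, KI over WT, of each gene with all 12 libraries (black, bar = 95% interval), with 1 library left out (grey), with part of the KI libraries (triangles) and with scaling by library totals (squares). The interval excludes 0 for Nppa (0.94 to 3.43) and Corin (-0.56 to -0.21) and includes it for the other genes.

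The guanylyl cyclase receptor gene Npr1 (Gene ID 18160, chromosome 3, 90450591 to 90465928, minus strand) did not pass the threshold. It ranged from 20.8 to 27.7 CPM in KI, with a median of 25.9 CPM, and from 19.9 to 28.5 CPM in WT, with a median of 21.7 CPM. All KI libraries lay inside the WT range, whose upper end is WT 4 alone. The log2 fold change was 0.14 (SE 0.10, 95% interval -0.06 to 0.35, adjusted p = 0.371 by edgeR).

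Npr2 (Gene ID 230103, chromosome 4, 43629015 to 43651437, plus strand), which encodes the receptor for C-type natriuretic peptide, had the narrowest spread of the 6 genes. It ranged from 54.2 to 62.6 CPM in KI, with a median of 59.8 CPM, and from 56.8 to 62.9 CPM in WT, with a median of 59.4 CPM. The log2 fold change was -0.02 (SE 0.05, 95% interval -0.13 to 0.09, adjusted p = 0.844 by edgeR), and it was 0.13 (SE 0.07, adjusted p = 0.177) when libraries were scaled by their totals. Nppc, the gene of the C-type peptide, was too low to test, with at most 0.0656 CPM in KI and 0.0569 CPM in WT.

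Npr3 (Gene ID 18162, chromosome 15, 11839896 to 11907837, minus strand), the clearance receptor gene, ranged from 14.4 to 42.9 CPM in KI, with a median of 23.6 CPM, and from 16.1 to 26.1 CPM in WT, with a median of 20.2 CPM. The highest value was that of KI 6 and the lowest that of KI 2. The log2 fold change of 0.33 (SE 0.21, 95% interval -0.12 to 0.77, adjusted p = 0.343 by edgeR) was 0.12 without KI 6 (SE 0.16, adjusted p = 0.701). The ratio of Npr3 to Npr1 counts was 1.55 in KI 6, between 0.664 and 1.14 in the other KI libraries and between 0.564 and 1.22 in WT.

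Npr3 is known as a gene of the endocardium, the inner lining of the heart, and endocardial markers were highest in the same library. Their summed level over 7 markers ranged from 88.0 to 225.4 CPM in KI and from 90.0 to 132.6 CPM in WT, and without KI 6 the highest KI value was 115.2 CPM. All 7 were highest of the 12 libraries in KI 6, with von Willebrand factor (Vwf) at 100 CPM there, 34.0 CPM or less in the other KI libraries and 63.7 CPM or less in WT. Gata5 was at 0 in every WT library and at 0.416 CPM in KI 6. Of the 7 general endothelial markers, which sum to between 1005 and 1251 CPM in KI and between 981.2 and 1181 CPM in WT, 3 were highest in KI 6. KI 6 was also highest for 7 of 7 fibroblast, 7 of 9 atrial and 4 of 7 mural (smooth muscle and pericyte) markers. It was highest for 1 of 7 macrophage and 0 of 7 ventricular markers. The high values in KI 6 were thus not confined to endocardial markers. The part of any of these markers in the Npr3 values was not tested.

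Per length, the peptide genes stood far above the protease and receptor genes. In CPM per kb of annotated exon, from GENCODE M21 on GRCm38, Nppa averaged 1262 ± 772 in KI and 278 ± 159 in WT, and Nppb averaged 457 ± 61.8 in KI and 334 ± 189 in WT (SD, n = 6 each). Corin followed with 27.5 ± 2.75 in KI and 35.9 ± 3.67 in WT, then Npr2 with 15.7 ± 0.97 in KI and 16.0 ± 0.63 in WT. Npr1 had 6.14 ± 0.74 in KI and 5.55 ± 0.76 in WT, and Npr3 had 3.56 ± 1.32 in KI and 2.84 ± 0.52 in WT. The order from Nppb down to Npr3 held in 6 of 6 KI libraries and 6 of 6 WT libraries for each neighbouring pair. Nppa stood above Nppb in 4 of 6 KI libraries and 1 of 6 WT libraries, so the order of that pair varied within each group. The values of Npr1 and Npr3 overlapped in KI, at 5.11 to 6.82 for Npr1 and 1.99 to 5.91 for Npr3, and did not overlap in WT. Reads over introns were counted too, so genes with long introns, such as Corin, can hold counts from unspliced RNA.

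Across libraries of the same genotype, 0 of the 30 relations between pairs of the 6 genes passed an adjusted p of 0.05 by an exact permutation test of r or of rho, and 3 had an unadjusted p under 0.05 by r. These were Nppa with Nppb in WT, given above, and Npr1 with Npr2 in both genotypes. Npr1 and Npr2 had r = 0.87 in KI (exact permutation p = 0.0389, adjusted 0.282, rho = 0.77, exact permutation p = 0.103, adjusted 0.514) and r = 0.79 in WT (exact permutation p = 0.0292, adjusted 0.282, rho = 0.83, exact permutation p = 0.0583, adjusted 0.514). Without the 2 libraries farthest from the median of Npr1, r was -0.18 in KI and 0.19 in WT. With so few libraries and a narrower range of Npr1 left, these values cannot tell whether the relations rest on the libraries left out.

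The genes whose log2 CPM followed each of the 6 most closely over the 12 libraries were found among 11613 named genes. This is a description, with no test, since the libraries share the genotype difference. For Nppa they included Meox1, a homeobox transcription factor (r = 0.925), and Adamtsl2, a secreted matrix glycoprotein (0.924). With the group means removed, r with Nppa was 0.861 for Meox1 and 0.869 for Adamtsl2. Both rose in KI by edgeR. With KI 1, 2 and 6 alone the calls were lost, at log2 fold changes of 0.58 for Meox1 (adjusted p = 0.270) and 1.15 for Adamtsl2 (adjusted p = 0.169). Meox1 was at 22.2 CPM in KI and 12.9 CPM in WT (log2 fold change 0.78, SE 0.20, adjusted p = 0.0296), and its call was lost without WT 3, WT 6 or any 1 of KI 3, 4, 5 and 6 (adjusted p from 0.0585 to 0.0681). Adamtsl2 was at 26.1 CPM in KI and 7.82 CPM in WT (1.74, SE 0.36, adjusted p = 0.0127), with no call lost by leaving out 1 library.

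For Nppb the closest genes were Tnfrsf12a, which encodes the receptor of the cytokine TWEAK (r = 0.944, and 0.977 with the group means removed), Ptk2b, a tyrosine kinase gene (0.935), and Sec22b, a vesicle transport gene (0.933). Tnfrsf12a was at 54.7 CPM in KI and 52.9 CPM in WT, with an adjusted p of 0.944 by edgeR. For Corin they were Pex2, a peroxisome gene (0.933), Abracl (0.932) and Fastkd1, a mitochondrial RNA gene (0.917). Pex2 (log2 fold change -0.27, SE 0.05, adjusted p = 0.0115) and Fastkd1 (-0.40, SE 0.08, adjusted p = 0.0117) fell in KI by edgeR. With KI 1, 2 and 6 alone the calls were lost, at -0.23 for Pex2 (adjusted p = 0.0877) and -0.35 for Fastkd1 (adjusted p = 0.102), and that of Pex2 was also lost under scaling by library totals (-0.12, adjusted p = 0.171). Abracl was at -0.35 (SE 0.11, adjusted p = 0.0550). The closest to Npr1 were Peg3 (0.954), Pcgf2 (0.933) and Mpdu1 (0.925), to Npr2 Tbkbp1 (0.956), Stx4a (0.923) and P2rx6 (0.919), and to Npr3 Enpp6 (0.973), Sema3d (0.893) and Adgra2 (0.890).

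The rest of the pathway was read from 4 lists of 48 genes, of which 47 are in the table and 45 were tested. By edgeR, 0 were higher and 2 lower, or 4.44% against 8.75% of all genes tested, and 15 had an unadjusted p under 0.05 (25.8% over all genes tested). Over the 45 genes the median log2 fold change was -0.01, against 0.01 over all genes tested. DESeq2 called 2 higher and 5 lower, as did voom, beside 13.1% and 14.6% of all genes tested. Scaling by library totals gave 6 higher and 1 lower, beside 20.2% of all genes tested.

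Among genes that process or degrade the peptides, 1 of 5 tested fell and 0 rose by edgeR (2 at an unadjusted p under 0.05, with DESeq2 and voom each calling 2 lower and 0 higher). The gene that fell was Mme, which encodes neprilysin, a protease that degrades natriuretic peptides. It ranged from 6.15 to 9.71 CPM in KI (median 7.10 CPM) and from 8.87 to 14 CPM in WT (median 12.2 CPM). Its mean was 7.61 ± 1.59 CPM in KI and 11.7 ± 2.27 CPM in WT (SD, n = 6 each), a log2 fold change of -0.62 (SE 0.15, adjusted p = 0.0242 by edgeR). Its 6 KI values were each below the WT mean. The call was lost without WT 3 (adjusted p = 0.0546), WT 6 (0.0523), KI 3 (0.0569), KI 4 (0.0545) or KI 5 (0.0515) and with KI 1, 2 and 6 alone (0.241). Furin, a protease gene that also processes peptide precursors, was at 76.6 ± 5.44 CPM in KI and 91.2 ± 12.0 CPM in WT (log2 fold change -0.25, SE 0.08, adjusted p = 0.0713 by edgeR).

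Of the 11 genes in the cyclic GMP phosphodiesterase list, 1 fell and 0 rose by edgeR. Most of the list, but not Pde6d, encodes enzymes that can break down the messenger made by the receptor of Npr1. By edgeR, 7 had an unadjusted p under 0.05, a level that 25.8% of all genes tested reached. DESeq2 called 2 higher and 2 lower, and voom 2 higher and 1 lower. Pde3a, a major cardiac phosphodiesterase gene, ranged from 76.1 to 101 CPM in KI (median 82.2 CPM) and from 100 to 133 CPM in WT (median 106 CPM). This was a log2 fold change of -0.37 (SE 0.08, adjusted p = 0.0182 by edgeR), and -0.23 with an adjusted p of 0.0841 when libraries were scaled by their totals. The call was also lost with KI 1, 2 and 6 alone (adjusted p = 0.203). Pde2a, whose product cyclic GMP stimulates, was at 62.4 ± 6.83 CPM in KI and 69.3 ± 6.19 CPM in WT (log2 fold change -0.15, SE 0.08, adjusted p = 0.234 by edgeR). The median of the list was 0.16, and 0.31 under scaling by library totals, where 5 members were called higher and 0 lower.

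Of the 12 genes of the soluble cyclase, the cyclic GMP kinases and their targets, 0 passed the threshold by edgeR, DESeq2 or voom, and 3 had an unadjusted p under 0.05 by each. Ppp1r12a, a myosin phosphatase subunit gene, was at 53.8 ± 1.66 CPM in KI and 57.3 ± 4.51 CPM in WT (log2 fold change -0.09, SE 0.05, adjusted p = 0.302 by edgeR). Vasp, which encodes a cytoskeletal target of the kinases, was at 37.2 ± 3.63 CPM in KI and 33.8 ± 3.65 CPM in WT (0.14, SE 0.08, adjusted p = 0.318). The list median was -0.01, and 0.14 under scaling by library totals, where 1 member (Prkg1) was called higher.

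Among 17 transcription factor genes known to act on Nppa or Nppb, 0 passed the threshold by edgeR and 3 had an unadjusted p under 0.05. DESeq2 called 1 lower and voom 2 lower, and neither called any higher. Tead1, whose product binds the MCAT motif, was at 221 ± 27.2 CPM in KI and 235 ± 28.8 CPM in WT (log2 fold change -0.09, SE 0.09, adjusted p = 0.588 by edgeR, or 0.05 under scaling by library totals). Mef2a, a muscle enhancer factor gene, was at 151 ± 9.10 CPM in KI and 177 ± 21.9 CPM in WT (-0.23, SE 0.08, adjusted p = 0.0836). The median of the list was -0.05, and 0.10 under scaling by library totals.

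**Figure D4:**
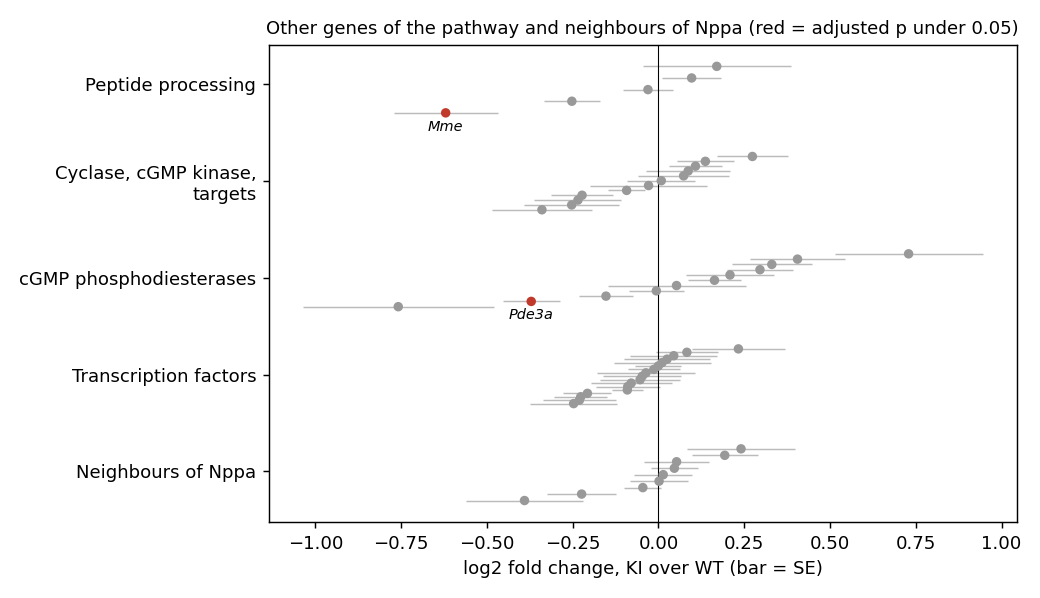
Log2 fold change, KI over WT, of the other pathway genes and of the neighbours of Nppa, with SE bars. Red points passed an adjusted p of 0.05. Mme (-0.62) and Pde3a (-0.37) are the 2 red points. The other genes lie on both sides of 0, and Pde11a (-0.76) and Pde3b (0.73) lie farther from 0 than either red point without passing.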

How the data were processed

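Libraries were made with a stranded messenger RNA kit, per the labels' protocols, and reads were processed with cutadapt 2.5, STAR 2.7.2b and featureCounts 1.6.4, per the submitters' processing notes. The authors deposited expected counts per gene, not normalized. Per the file headers, reverse-strand reads were counted over whole gene spans of GRCm38.p6, introns included, and reads with several alignments or genes were split as fractions. Counts were rounded to whole numbers and filtered by filterByExpr (minimum count 10, total 15), which left 15602 genes. They were scaled by TMM and compared with the edgeR 4.0.16 quasi-likelihood test (limma 3.58.1, R 4.3.3), with Benjamini-Hochberg adjustment over all genes tested, a threshold of 0.05 and fold changes of KI over WT. The fit was tested on simulated data.

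CPM are scaled by TMM, and log2 CPM used a prior count of 2. Intervals are the log2 fold change with its SE and the moderated degrees of freedom. Correlations used log2 CPM within a genotype and two-sided exact permutation tests. Totals of 27867517 to 44559350 counts limit the precision, and counting error covers only part of the spread between libraries.

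The 6 genes and the lists were chosen with earlier results of these data known. Named genes were the 6, up to 4 members of each list past the threshold (or the most abundant, to make up 2), and the 3 genes closest to each of the 6, of which 1 is not reported here. Clcn6, Lemd2, Nppc, the phosphodiesterase genes other than Pde3a and Pde2a, and the markers given as values were named after their values were seen. Alternatives were RLE factors, library totals, no filter, a CPM filter, DESeq2 1.42.0, voom with quality weights, a replicate block, each library left out and parts of the KI group, and, chosen after seeing the data, unrounded counts and no mitochondrial genes.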

Additional observations from a re-analysis of the deposited data

Results flagged for a closer look

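In groups of 6 libraries, 3 of 26 sets of values had a library far from the rest by the gap test of Dixon, which chance would flag in about 5% of sets. The summed level of the 9 atrial markers was 586.6 CPM in KI 6, above the other KI libraries. The summed level of the 7 endocardial markers was 225.4 CPM in KI 6, also above the other KI libraries. Npr1 was 28.53 CPM in WT 4, above the other WT libraries, and without WT 4 its log2 fold change was 0.22 with an adjusted p of 0.0949 by edgeR.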

How the results depend on the processing

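Of 23 alternatives, all kept the sign and the side of the threshold for Nppb, Npr1 and Npr3, 13 did for Nppa and 20 for Corin. Values below are log2 fold changes unless called counts, and the cause of each change was not tested. With library totals alone Corin was -0.237, Npr2 0.13, Mfn2 0.103, Ppp1r12a 0.051 and Tead1 0.0544. Counts of genes were then 2957 higher and 191 lower, against 688 and 677, with 6 pathway genes higher and 1 lower, against 0 and 2. DESeq2 gave 1067 genes lower, Plod1 at -0.00446, and 2 pathway genes higher and 5 lower. Voom gave 1265 genes lower, Npr2 at 0.00806, and 2 pathway genes higher and 5 lower. RLE factors put Plod1 at -0.00452 and no filter at -0.0088, and the CPM filter called 1 pathway gene higher.

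With KI 3, 4 and 5 only, 1195 genes were lower, Npr2 was 0.0329 and Plod1 -0.0358, and 2 pathway genes were higher and 5 lower. With KI 1, 2 and 6 only, 68 genes were higher and 22 lower, Nppa was 1.73, Corin -0.295, and 0 pathway genes were lower. The smaller KI group is part of that alternative's construction.

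With a replicate block, Nppa was 2.20 (adjusted p = 0.169) and Corin -0.381 (adjusted p = 0.0501), 220 genes were higher and 212 lower, and 1 pathway gene was lower. Nothing in the labels says that the numbers pair the libraries. Deviations of same-numbered libraries correlated between -0.278 and 0.0354, and 0 of 6 KI libraries correlated best with their own number. With only 6 pairs, these values cannot settle whether a weak pairing exists.

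Leaving out 1 library at a time gave 1.96 to 2.40 for Nppa, -0.435 to -0.335 for Corin, -0.0396 to 0.00104 for Npr2 and -0.0397 to 0.0548 for Plod1. The reversed Plod1 values ran from -0.0397 to -0.00137. Counts ran from 390 to 714 higher and 338 to 833 lower, with 0 to 1 pathway genes higher and 1 to 4 lower. Adjusted p over all alternatives ran from 0.00726 to 0.244 for Nppa and from 0.000379 to 0.134 for Corin. Nppc, Ostn and 4 of the 9 atrial markers did not pass the count filter and were not tested. Nppc, Ostn and Bmp10 were low in every library. Myl7 (145 CPM), Sln (52.4 CPM) and Mybphl (29.8 CPM) were well detected in KI 6 but at or below 0.426 CPM in the other 11 libraries.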
